A study of Mus musculus with 8 samples.

Results

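The protein components of the cytosolic ribosome were followed across 8 Affymetrix arrays of mouse neural crest cells. The members were chosen by symbol. Every probe set counted whose only annotated symbol is Rpl or Rps with digits and at most 1 letter a, x or y, or is Rpsa, Rplp0, Rplp1 or Rplp2. This gave 94 of the 45101 probe sets, and they belong to 42 of the 18193 genes with a probe set of their own. RefSeq lists 76 protein-coding mouse genes with such symbols. Another 27 of these symbols stood only on probe sets annotated with several genes and were not analysed here singly. The 42 genes comprise 22 of the large (60S) subunit and 20 of the small (40S) subunit.

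The arrays held 3 samples of parental JoMa1, a mouse neural crest precursor line, and 1 sample whose label gives JoMa1 cells that received GFP as a control. The other 4 samples were lines, numbered 3 to 6, each grown from a separate tumour that MYCN-transfected JoMa1 cells formed in immunocompromised mice. JoMa1 is known to carry a MYC fusion protein that tamoxifen switches on, so that all groups share it, and the sources used here do not say whether tamoxifen was present. Whether the transfected cells were 1 clone and whether the lines were cleared of host cells is not stated, and some labels speak of tumours where others speak of lines derived from them. The labels do not say whether parental samples were grown separately, so that the p-values measure the spread between these samples, which may be technical. Array precision is limited by the number of arrays.

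A ribosome joins a small subunit, which reads the messenger RNA, to a large subunit, which forms the peptide bonds. Most of its proteins are present as a single copy, and most are encoded by a single active gene beside many processed pseudogenes. The messenger RNAs of ribosomal proteins begin with a run of pyrimidines, the 5' terminal oligopyrimidine (TOP) motif, through which the kinase complex mTORC1 and the RNA-binding protein LARP1 control their translation. MYC and MYCN are known as activators of ribosome production, in neuroblastoma among other tumours.

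The start sites show which members carry this motif in the annotated transcript. RefSeq promoter sequences (GRCm38.p6) were matched for 37 of the 42 genes. The motif was taken as a C at the start site followed by at least 4 pyrimidines (C or T), read on the gene's strand. It was present in 8 of the 37 genes (21.6%), in 2.49% of 27025 promoters of all genes and in 0 of 67 promoters of mitochondrial ribosomal proteins. Allowing the run to begin up to 5 bases to either side gave 18 of 37 (48.6%), against 18.5% of all promoters. The windows below hold the 15 bases before and the 15 bases from the annotated start. They show genes with a run at the start (Rps27, Rps6, Rps18, Rps10, Rpl35, Rpl38), a gene whose run begins 2 bases later (Rpl12), and Rps25 and Rpl37, where the search found none. Capitals mark the pyrimidine run from the annotated start, or from 2 bases after it in Rpl12, and pyrimidines just before the start are left in lower case.
Rps27 (chr3:90213634-90213663, minus strand): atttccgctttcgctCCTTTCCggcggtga
Rps6 (chr4:86857353-86857382, minus strand): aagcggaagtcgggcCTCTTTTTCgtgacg
Rps18 (chr17:33955651-33955680, minus strand): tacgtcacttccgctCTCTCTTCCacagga
Rps10 (chr17:27635230-27635259, minus strand): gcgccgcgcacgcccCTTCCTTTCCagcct
Rpl35 (chr2:39005117-39005146, minus strand): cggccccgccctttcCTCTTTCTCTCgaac
Rpl38 (chr11:114668565-114668594, plus strand): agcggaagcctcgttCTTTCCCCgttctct
Rpl12 (chr2:32961697-32961726, plus strand): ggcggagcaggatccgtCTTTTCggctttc
Rps25 (chr9:44407699-44407728, plus strand): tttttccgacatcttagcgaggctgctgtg
Rpl37 (chr15:5116598-5116627, plus strand): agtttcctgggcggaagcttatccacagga
A missing run says only that these letters are not in the annotated window, since annotated starts can lie a few bases from the site used. Among the 250 bases before and 50 after the start, the E-box CACGTG, the letters MYC proteins bind, occurred in 3 of 37 genes (8.11%) and in 7.24% of all promoters. The letters GGAAGT, counted on both strands and sharing no overlap with the E-box, occurred in 18 of 37 (48.6%) and in 24.1% of all promoters.

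Levels are the authors' RMA values on the log2 scale. Each gene is represented by its brightest probe set, and a value is comparable between arrays, not between genes. The transfected gene was checked first. The brightest Mycn probe set read 7.29, 7.49 and 7.49 in parental arrays with 14.08 to 14.26 in the tumour lines. It read 11.73 in the library labelled GFP-transfected, a signal that goes against the label. A second Mycn probe set, 1417155_at, ran the other way, with 8.01 to 8.23 in parental arrays, 4.33 in that library and 4.53 to 4.69 in tumour lines. The remaining Mycn probe set, 1425922_a_at, read 5.64 to 5.97, 5.88 and 5.90 to 6.23 in the same order and was not called. Which transcript each probe set reads was not examined, and the library is called by its label throughout. Measures of RNA quality also differed slightly between the groups, in opposite directions. The 3' minus 5' difference of Actb was 0.63 to 0.64 for parental RNA, against 0.52 to 0.61 for tumour lines, and that of Gapdh was 0.05 to 0.08 and 0.09 to 0.15. On parental array 3 the hybridisation control bioB read 7.70, against 8.86 to 9.17 on the others. The part of RNA quality in the results was not tested. Neural crest markers averaged 8.06 to 8.07 in parental arrays, with 7.75 to 8.11 in tumour lines. Of the 14 markers 3 rose and 3 fell at an adjusted p under 0.05 in limma. Over all genes 36.0% were called, 16.6% higher and 19.4% lower. Of 11 leukocyte markers, of which 4 lay near the bacterial trpnX controls, 3 rose (Cd14, Cd68 and Lyz2), with array means of 5.41 to 5.53 and 5.75 to 5.83. In the library labelled GFP-transfected, Cd68 read 6.48, within the 6.30 to 6.62 of the tumour lines. Cd14 (7.91) and Lyz2 (5.74) lay below all tumour lines there. Of 8 endothelial markers 0 were called (4.83 to 5.0, then 4.90 to 5.05). Of 10 fibroblast markers 4 rose and 2 fell (9.47 to 9.60, then 9.65 to 10.3), and the library labelled GFP-transfected averaged 6.70. The part of other cells in the results was not tested.

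Ribosomal protein genes sat mostly at the top of the signal range. For 33 of the 42 genes the mean over the arrays lay above 13, between 13.94 (Rps15) and 14.61 for the 32 of them that were not called, where the highest value on any array was 14.84 to 14.95. The next gene below, Rpl37, stood at 11.57. The threshold of 13 was set after the values were seen. Signals this close to the top of the range may have little room to rise. Whether differences there, rises or falls, are understated was not tested. The other 9 genes (Rpl12, Rpl14, Rpl27a, Rpl37, Rpl39, Rps6, Rps16, Rps25 and Rps27) were read by probe sets of middle or low signal. That signal belongs to the probe set and says nothing of how abundant the messenger RNA is. The only probe set of Rps16, a protein of the small subunit, read 4.0 to 4.44 in all 8 arrays. It lay near the bacterial trpnX controls (means of 3.84 to 4.04 per array) and carries little information.

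Between tumour lines and parental cells, ribosomal protein genes differed little. Of the 42 genes, 6 rose and 0 fell in limma at an adjusted p under 0.05, whereas 36.0% of all genes were called, 16.6% higher and 19.4% lower. The median difference was -0.04, beside 0.01 over all genes, and the median size of the difference in either direction was 0.07, beside 0.18. Rps25 alone moved by 2-fold, while 8.86% of all genes were called with at least that change. Sizes also depended on signal. Above a mean of 13 the median size was 0.06 for the 33 ribosomal protein genes and 0.14 for the 249 other genes. Of these 249, only 4 were called with a 2-fold change. For the 9 ribosomal protein genes below 13 the median size was 0.32. At an unadjusted p under 0.05 the count was 9 of 42, beside 43.6% of all genes. Both subunits gave few calls, with 4 of 22 genes higher in the large subunit (median -0.01) and 2 of 20 in the small subunit (median -0.04).

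**Figure D1:**
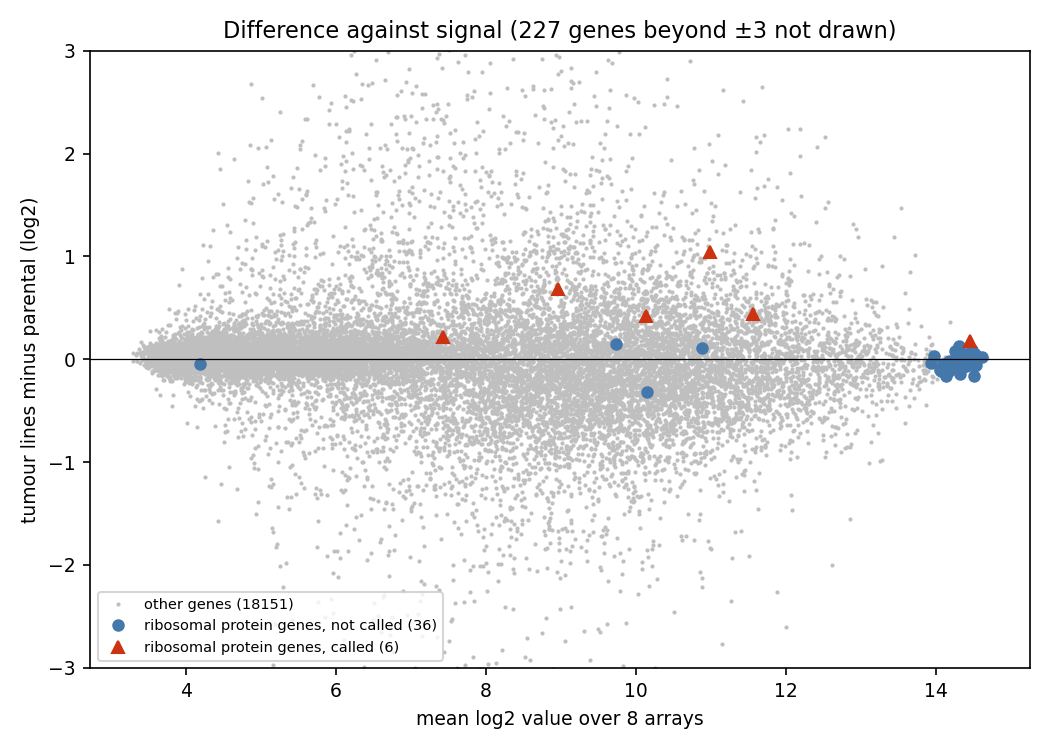
Mean log2 value over the 8 arrays (horizontal axis) against the log2 difference between tumour lines and parental arrays (vertical axis) for 18193 genes. The ribosomal protein genes form a tight group above 13 close to 0, and 5 of the 6 called genes (triangles) lie at lower signal, while 227 genes beyond 3 in either direction are not drawn.

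Of the 9 genes below 13, 5 rose, where 36.1% of the 17902 other genes below 13 were called (2972 higher and 3487 lower). Of the 33 genes above 13, 1 rose, where 32.9% of the 249 other genes above 13 were called (35 higher and 47 lower). With a variance prior that follows signal, 4 of the 9 and 6 of the 33 were called, beside 36.1% and 47.4% of the other genes. The 32 bright ribosomal protein genes without a call differed by -0.17 to 0.13, and their 95% confidence intervals all lay between -0.31 and 0.27.

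Rps25, a small-subunit protein that viral internal ribosome entry sites need, rose most. It read 10.36, 10.50 and 10.41 in parental arrays, 10.74 in the library labelled GFP-transfected, and 11.59, 11.50, 11.30 and 11.48 in tumour lines 3 to 6. Every tumour line lay above every other array. The difference was 1.04 (SE 0.08, 2.06-fold), with a limma adjusted p of 3.68e-05.

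Rps27, a zinc-finger protein of the small subunit mutated in some patients with Diamond-Blackfan anaemia, rose by 0.68 (SE 0.13, 1.60-fold, limma adjusted p = 0.00334). Its values were 8.51, 8.75 and 8.45 in parental arrays and 9.27, 9.53, 9.04 and 9.16 in tumour lines. The library labelled GFP-transfected read 8.92, between the groups.

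Rpl37, a large-subunit zinc-finger protein that can bind MDM2, rose by 0.44 (SE 0.10, limma adjusted p = 0.00682). It read 11.35, 11.25 and 11.43 in parental arrays, 11.34 in the library labelled GFP-transfected and 11.94, 11.86, 11.60 and 11.75 in tumour lines. The probe set is of the _x_at kind, which can bind other transcripts too.

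Rpl12, a protein at the base of the stalk to which elongation factors bind, rose by 0.42 (SE 0.11, limma adjusted p = 0.0184). It read 9.93, 9.91 and 9.80 in parental arrays and 10.32, 10.46, 10.01 and 10.39 in tumour lines. The library labelled GFP-transfected read 10.28, within the range of the tumour lines. With that library pooled with the parental arrays the call of Rpl12 ended (0.32, limma adjusted p = 0.11, where all alternatives gave 0.0015 to 0.11), as it did without parental array 2 or 3 (0.43 and 0.38).

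Rpl39 and Rpl19, both at the rim of the tunnel through which the new peptide leaves, rose by small amounts. Rpl39 read 7.38, 7.34 and 7.28 in parental arrays, 7.21 in the library labelled GFP-transfected with 7.52 to 7.59 in tumour lines (0.21, SE 0.06, limma adjusted p = 0.0285). Rpl19 read 14.35 to 14.38 in parental arrays, 14.31 in that library with 14.53 to 14.57 in tumour lines (0.18, SE 0.06, limma adjusted p = 0.0470). In both genes the groups did not overlap. Leaving out any single array of the parental or tumour groups ended the call of Rpl19, with differences of 0.17 to 0.18. Leaving out any parental array or tumour line 3 ended that of Rpl39, with differences of 0.18 to 0.24. Rps25, Rps27 and Rpl37 were called in each of the 7 fits that left out an array. Of the 6 genes, Rps27 starts with the pyrimidine run printed above, Rpl12, Rpl19 and Rpl39 have such a run within 5 bases, and Rps25 and Rpl37 do not.

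**Figure D2:**
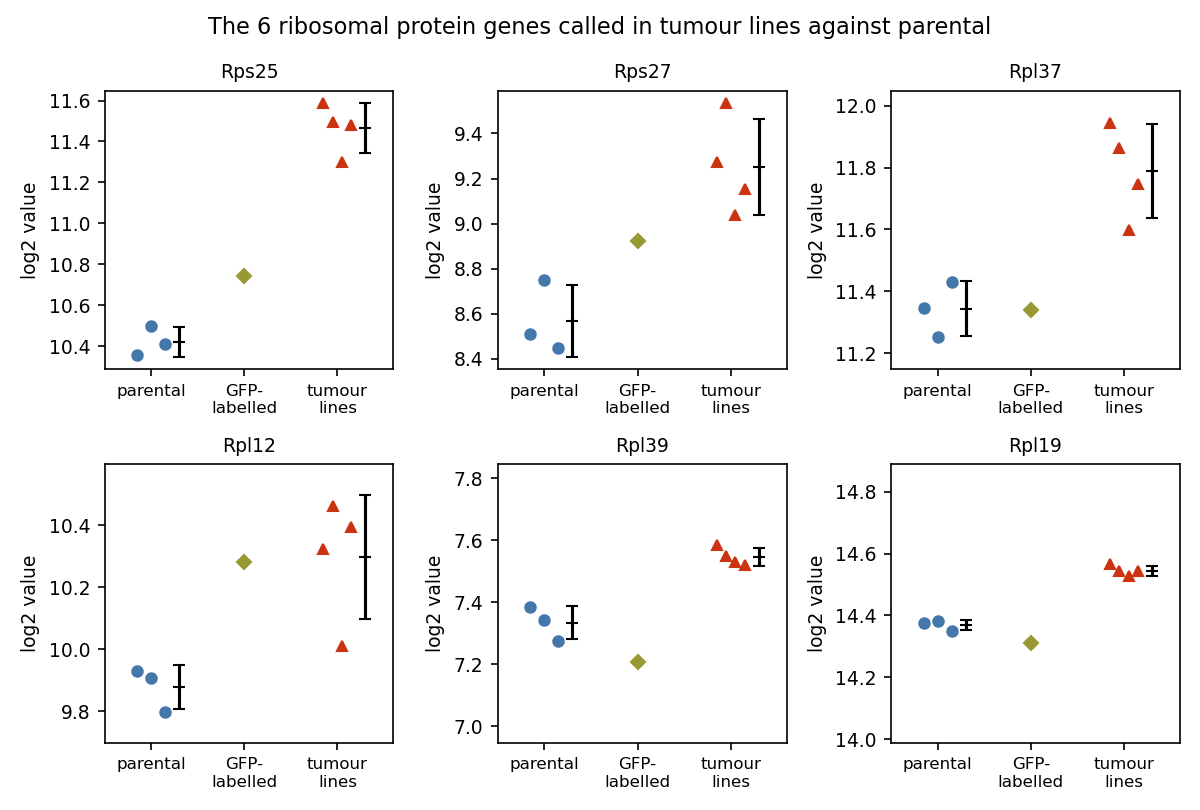
Log2 values of the 6 called genes on each array, by group, with the mean and SD of the parental arrays and tumour lines beside the points. The tumour lines lie above all parental arrays in each panel, and the single library labelled GFP-transfected lies within their range for Rpl12.

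Most of the bright ribosomal protein genes had slightly negative differences, as did other bright genes. Of the 33 genes, 22 had a negative difference and 11 a positive one, and 60.6% of the 249 other genes above 13 were negative. All tumour lines lay below all parental arrays in 13 of the 33 and above in 5, where 41.0% and 24.1% of the other genes above 13 did so. The median was -0.05 in both sets. Over all 42 genes 14 lay below and 10 above without overlap, where 44.4% of all genes did not overlap, 23.2% below and 21.2% above. The SD of the bright genes without a call was 0.0049 to 0.039 in parental arrays and 0.015 to 0.11 among tumour lines. The largest of these differences was that of Rpl7a, a large-subunit protein, with 14.59, 14.58 and 14.59 in parental arrays and 14.44, 14.45, 14.36 and 14.44 in tumour lines (-0.17, SE 0.06, limma adjusted p = 0.0671).

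Rps19 is the gene most often mutated in Diamond-Blackfan anaemia. It read 14.21, 14.25 and 14.20 in parental arrays and 14.08, 14.07, 14.05 and 14.02 in tumour lines (-0.16, SE 0.06, limma adjusted p = 0.0664). Rpl4, a protein lining the exit tunnel, differed by -0.12 (adjusted p = 0.196 in limma). These p-values depend on how limma estimates the spread. With the prior that follows signal, 10 genes were called, 6 higher and 4 lower. The lower genes were then Rpl7a (adjusted p = 0.00504, where the alternatives together gave 0.00504 to 0.161), Rps19 (0.00591, range 0.00591 to 0.174), Rpl13a (0.0160, range 0.00178 to 0.24) and Rpl4 (0.0438, range 0.0438 to 0.376). Under that prior Rpl22, another exit-rim protein, was called higher at 0.13, and Rpl39 was not called (adjusted p = 0.0594, range 0.0184 to 0.103).

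**Figure D3:**
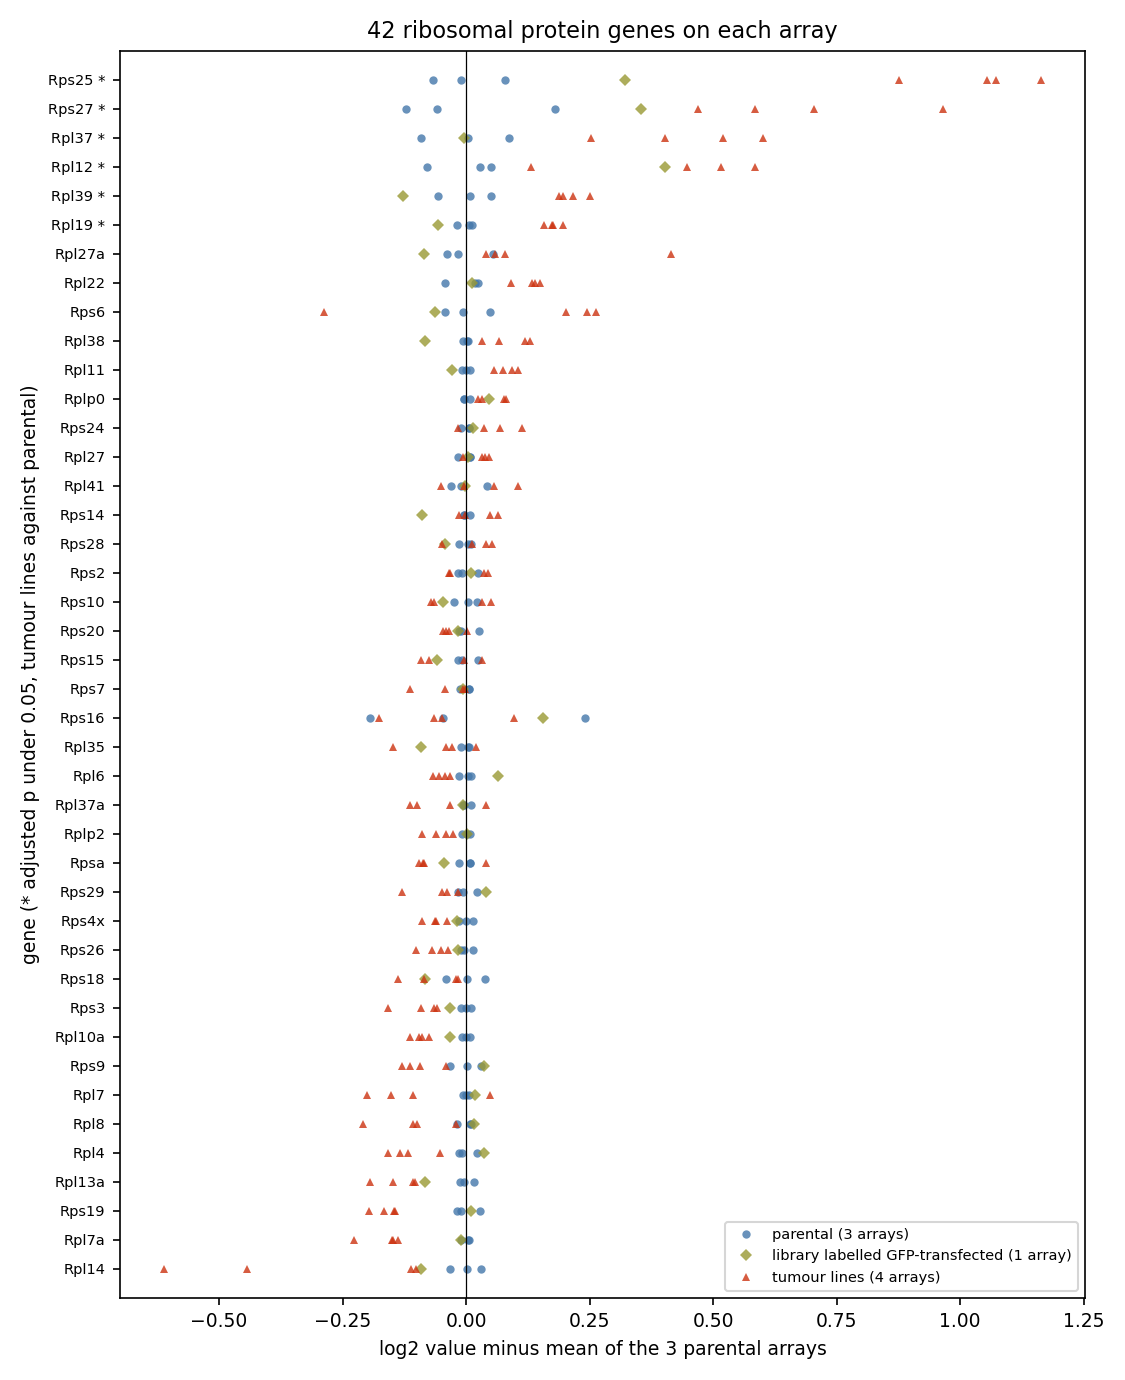
Each of the 42 genes on each array as log2 value minus the mean of the 3 parental arrays, ordered by the difference between tumour lines and parental arrays, with called genes starred. The tumour-line points of Rps25 lie farthest to the right, with differences of the 42 genes running from -0.32 to 1.04.

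Apart from Rps27, described above, the next genes gave no call. In the stalk that recruits elongation factors, Rplp0 read 14.48 to 14.49 in parental arrays, with 14.51 to 14.57 in tumour lines (0.05, adjusted p = 0.551 in limma). Rplp2 differed by -0.05 (adjusted p = 0.540 in limma). Rpl11, which with Rpl5 and 5S RNA forms the particle that inhibits MDM2, read 14.21 to 14.23 and 14.28 to 14.33. Its difference was 0.08 (95% interval -0.05 to 0.22), although the groups did not overlap. Rps14 (0.02), the small-subunit gene lost in the 5q- syndrome, and Rps4x (-0.06), on the X chromosome, were not called. Rpsa, also known as the laminin receptor, differed by -0.06 (adjusted p = 0.568 in limma). Rpl41 (0.03) and Rps2 (0.0037) were not called either. Of 11 measured genes mutated in Diamond-Blackfan anaemia, 1 rose (Rps27) and 0 fell, with a median of -0.01. Over all genes 16.6% were called higher and 19.4% lower.

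Several genes varied among the tumour lines. Rps6, the small-subunit protein phosphorylated by S6 kinase, read 10.79, 10.88 and 10.82 in parental arrays and 11.09, 10.54, 11.08 and 11.03 in tumour lines 3 to 6. Line 4 lay below all parental arrays and the other lines above. Without line 4 the difference of 0.11 became 0.24 and was called (limma adjusted p = 0.0262, the lowest of 0.0262 to 0.949 among alternatives). Rpl14, a large-subunit protein, read 10.35, 10.32 and 10.28 in parental arrays and 10.20, 9.70, 9.87 and 10.21 in tumour lines, a difference of -0.32 (adjusted p = 0.0949 in limma). All its tumour lines were lower, lines 4 and 5 most. Rpl27a read 10.08 in line 3 and 9.71 to 9.75 in the others, beside 9.63 to 9.72 in parental arrays.

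Fitted singly, 11 of the 94 probe sets were called, 7 higher and 4 lower, beside 33.9% of all probe sets. In 22 genes read by several probe sets, calls in both directions occurred in 0. Rpl13a, a large-subunit protein that can leave the ribosome to silence inflammatory transcripts, had 4 probe sets, and all lay lower in every tumour line. The brightest differed by -0.14 and was not called. Probe set 1455001_x_at read 13.68 to 13.69 in parental arrays, with 13.36 to 13.50 in tumour lines (-0.24, limma adjusted p = 0.0262). Probe set 1433928_a_at, with the lowest signal of the 4, read 13.35, 13.34 and 13.38 in parental arrays and averaged 12.90 (SD 0.10, n = 4) in tumour lines (-0.46, SE 0.08, limma adjusted p = 0.00178). The probe sets of lower signal therefore gave the larger differences.

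In Rps9, a small-subunit protein, probe set 1434624_x_at fell by 0.32 (limma adjusted p = 0.0119), while the brightest probe set differed by -0.09 and was not called. In Rpl37a, the brightest probe set differed by -0.05, whereas 1416218_x_at read 8.96, 8.50 and 8.63 in parental arrays and from 9.14 to 9.61 in tumour lines (0.63, limma adjusted p = 0.00862). That probe set stood at 9.28 in the library labelled GFP-transfected. A dim probe set of Rpl35 was called lower (-0.34). Among the 7 higher calls was also 1419799_at of Rpl27a. Its signal of 3.75 to 4.29 was not above the mean of the highest trpnX probe set (4.32), so that its difference carries no information on the gene. The remaining calls were the probe sets that represent Rps25, Rps27, Rpl37, Rpl12 and Rpl39. That of Rpl19 passed in the fit of genes and not in this one (limma adjusted p = 0.0596, beside 0.00213 to 0.126 among alternatives).

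The library labelled GFP-transfected, a single array with no replicate of its own, was taken to have the same spread as the rest. Against parental arrays 0 of the 42 genes were called in limma, where 16.1% of all genes were (7.43% higher and 8.66% lower), and 2 had an unadjusted p under 0.05, beside 27.2% of all genes. The median difference was -0.01. The largest positive values were those of Rpl12 (0.40), Rps27 (0.35), Rps25 (0.32), Rps16 (0.16) and Rpl6 (0.06). The largest negative ones were those of Rpl39 (-0.13), Rpl35 (-0.09), Rpl14 (-0.09), Rps14 (-0.09) and Rpl27a (-0.08). The median over the 18193 genes was 7.25 in this library and 7.43 to 7.45 in parental arrays, although the medians over all probe sets were alike (6.26 and 6.26 to 6.30). Centring each array on its median over the genes therefore shifted every gene alike, moving the median of all genes to 0.19 and that of the ribosomal protein genes to 0.18. By its construction this turned the small negative differences above positive.

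Single probe sets did stand apart in that library. For Rps9, probe set 1426958_at read 8.26, 8.20 and 8.19 in parental arrays, 9.23 in the library labelled GFP-transfected and 7.91 to 8.24 in tumour lines. Its difference from parental arrays was 1.02 (SE 0.14, limma adjusted p = 0.00193). For Rpl41, the smallest ribosomal protein, 1433530_at read 8.58 to 8.72, 9.58 and 8.24 to 8.90 in the same order of groups (0.91, limma adjusted p = 0.0279). The Rpl41 probe set 1454639_x_at was also higher, by 0.74. For Rpl22, 1448398_s_at read 9.91 to 9.96 in parental arrays, 8.50 in that library with 9.92 to 10.06 in tumour lines (-1.43, SE 0.10, limma adjusted p = 7.14e-05). The brightest probe sets of these 3 genes differed by 0.04, -0.0025 and 0.01.

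**Figure D4:**
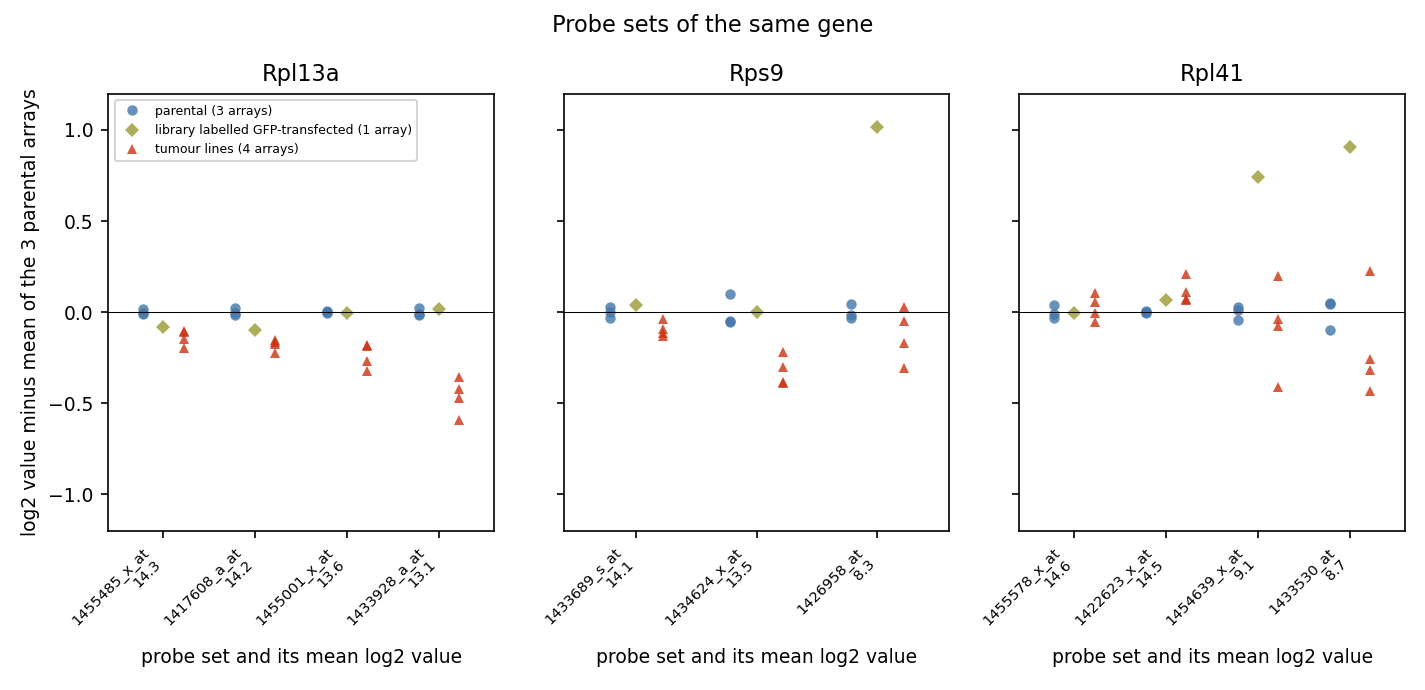
Log2 value minus the mean of the parental arrays for every probe set of Rpl13a, Rps9 and Rpl41, ordered by signal within each gene (mean log2 value under each name). All 4 probe sets of Rpl13a lie lower in the tumour lines, and the library labelled GFP-transfected stands apart in the dimmest Rps9 probe set and the 2 dimmest of Rpl41.

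Tumour lines were set against that library too, a comparison that shares arrays with both others. Of the 42 genes 3 were called, all higher, beside 30.3% of all genes (14.0% higher and 16.4% lower). They were Rps25 (0.72, SE 0.12, limma adjusted p = 0.00256), Rpl39 (0.34, SE 0.09, adjusted p = 0.0229) and Rpl37 (0.45, SE 0.14, adjusted p = 0.0424). Rps27 (0.33) and Rpl27a (0.23) were not called. The largest negative differences, Rpl14 (-0.23), Rps16 (-0.20), Rps19 (-0.17), Rpl7a (-0.16) and Rpl4 (-0.15), were not called. Centring each array on its median over the genes shifted all genes down alike, to a median of -0.20, and gave 14 calls, of which 1 was higher and 13 lower. Under it 38.7% of all genes were called, 10.0% higher and 28.6% lower.

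Other genes of the pathway were read from lists chosen by function. Over all genes 36.0% were called, 16.6% higher and 19.4% lower. Of 8 measured ribosomal proteins and paralogs outside the symbol rule, 1 fell and 0 rose. It was Rpl22l1, the paralog that can replace Rpl22, which read 13.52, 13.54 and 13.57 in parental arrays, 13.48 in the library labelled GFP-transfected and 13.25, 12.72, 12.32 and 12.67 in tumour lines (-0.80, SE 0.19, limma adjusted p = 0.00933). Line 5 was lowest and line 3 nearest to parental cells. Rpl22 itself differed by 0.13 and was not called.

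Beside each list that follows stands the share of all genes called, 36.0% (16.6% higher and 19.4% lower). Of 20 TOP messenger RNAs for other proteins, 0 rose and 6 fell, so that 30% were called, with a median of -0.13. The splicing factor gene Hnrnpa1 (-0.69), the initiation factor gene Eif4b (-0.33), the histone chaperone gene Nap1l1 (-0.30) and the elongation factor gene Eef2 (-0.22) were among them. Among 17 regulators of these messenger RNAs, 2 rose and 6 fell, which is 47.1%. The translation repressor gene Eif4ebp2 (-0.98), the mTORC1 inhibitor gene Tsc1 (-0.66) and Larp1 itself (-0.43) fell, and Deptor, an inhibitor of mTOR, rose by 0.48. In the library labelled GFP-transfected against parental arrays, the median of the 17 regulators was 0.19, with 0.98 for Eif4ebp2. In tumour lines their median was -0.01.

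Of 18 escorts and importers of ribosomal proteins, 4 rose and 7 fell, which is 61.1% beside 36.0% of all genes. The importin genes Ipo5 (-0.84) and Ipo9 (-0.73) fell, and Ltv1, an assembly factor of the small subunit, rose by 0.47. The median of the 18 was -0.19 in tumour lines and 0.38 in the library labelled GFP-transfected, each against parental arrays. Of 4 measured genes around the 5S particle and p53, 0 rose and 3 fell, namely Cdkn1a (-2.57), Mdm4 (-1.67) and Mdm2 (-1.01). The library labelled GFP-transfected differed from parental arrays by 0.76 for Cdkn1a, 0.63 for Mdm2, 0.10 for Mdm4 and -1.24 for Cdkn2a. Ribosomal proteins of the mitochondrion, which serve the separate mitochondrial ribosome, went both ways, with 20 of 76 higher and 20 lower (52.6% called, median -0.01). Mrpl23 (-1.28) and Mrps28 (0.73) were the extremes. Counted beside these lists, the cytosolic ribosomal protein genes had 6 of 42 called, and the difference between lists was not tested.

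**Figure D5:**
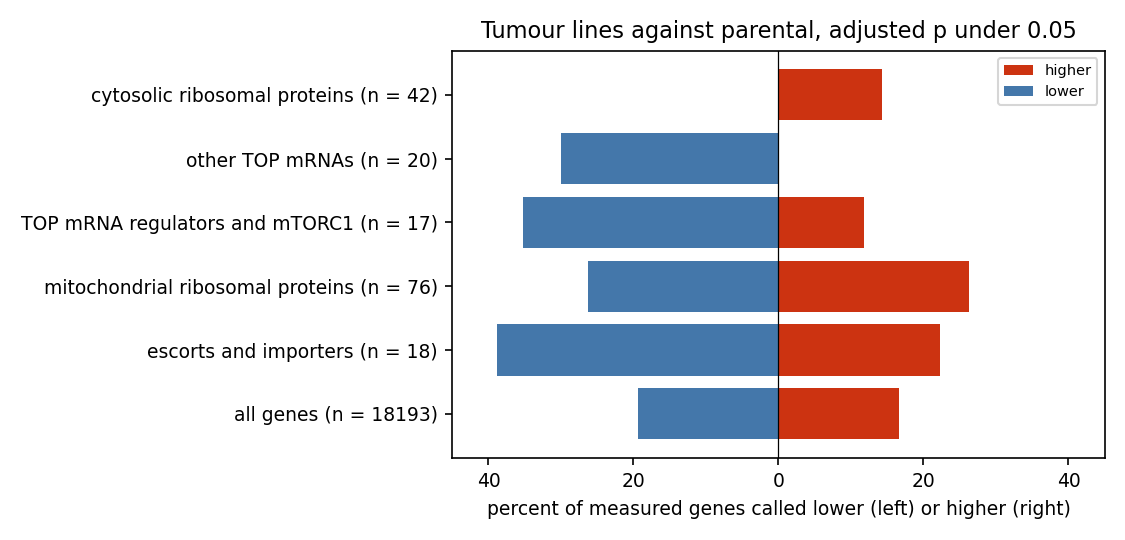
Percent of measured genes called lower (left) and higher (right) in tumour lines against parental arrays, for the cytosolic ribosomal proteins, 4 related lists and all genes, with the number measured in parentheses. The cytosolic ribosomal proteins have 6 genes higher and 0 lower, and the other TOP messenger RNAs 0 higher and 6 lower.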

How the data were processed

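RNA of 8 samples was measured on 8 arrays. The log2 values that the authors deposited came from RMA, which subtracts background, equalises the distributions of the arrays and summarises the probes of a set. Per the submitters' processing notes, the tools were RMA and Partek, with no version. That the scale is log2 was judged from the range of the values. No genome build is named in the sources used here. Of 45101 probe sets, 64 were controls, 34945 had 1 gene symbol, 932 several and 9160 none; only those with 1 symbol were tested. RefSeq (GRCm38.p6) held all 42 member IDs, and 0 symbols changed.

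Each gene took its probe set of highest mean. Limma 3.58.1 (R 4.3.3; lmFit, eBayes) was fitted to all 18193 genes with a mean for each group from all 8 arrays, two-sided, with Benjamini-Hochberg adjustment over all genes and calls under 0.05. Probe sets were also fitted singly, adjusted over all 34945. The script was tested on simulated data. SE comes from the fit. Alternatives were the mean of probe sets, no _x_at or _s_at probe sets, genes above the median level, a trended and robust prior, array weights, repeated quantile normalization, arrays centred on their median over the 18193 genes, the GFP-labelled library left out or pooled with parental, and each array left out. The members and lists were chosen with earlier results of these data known. Named genes were 14 anchors (9 were measured), up to 8 called rises and falls, the 5 largest differences each way per comparison with the library labelled GFP-transfected, the 5 genes of largest SD among tumour lines, the 3 brightest and 3 dimmest, and up to 3 called genes per list. Other genes named were chosen after their values were seen.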

Additional observations from a re-analysis of the deposited data

Results flagged for a closer look

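In 4 of the 24 named genes, 1 tumour line stood apart from the other 3, by a gap that exceeded Dixon's 95% critical share of the range of the 4 lines. The same rule marked 4 of all 42 ribosomal protein genes. Chance marks about 1 in 20 groups, but 5 of the 24 genes were named for their large spread among these lines. As 2 of the 4 (Rps6 and Rpl27a) are among those, the 24 cannot be set against that rate. For Rpl27a, line 3 read 10.08 and the others 9.71 to 9.75. For Rps6, line 4 read 10.54 and the others 11.03 to 11.09. For Rpl7a, line 5 read 14.36 and the others 14.44 to 14.45. For Rpsa, line 6 read 14.61 and the others 14.48 to 14.49. A different line stood apart in each.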

How the results depend on the processing

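Rps25 and Rps27 were called higher in tumour lines against parental arrays under all 17 alternatives (limma adjusted p up to 0.000523 and 0.02). Rpl37 was called under the 16 that gave it a value (up to 0.0346), and had none without _x_at and _s_at probe sets, since its only probe set is an _x_at. The 6 calls among genes became 10 with a trended and robust variance prior and 3 to 6 with each array left out (4 without parental array 1, and 3 without parental array 2 or 3). The 11 calls among probe sets became 7 without _x_at and _s_at probe sets, 18 with the trended prior and 6 to 11 with each array left out (7, 7 and 6 without parental arrays 1, 2 and 3). For the library labelled GFP-transfected against parental arrays, the count of 0 became 2 with probe sets averaged per gene, without _x_at and _s_at probe sets, or with centred arrays. It was 0 to 1 with each array left out (1 without tumour line 5, Rpl12). With centred arrays 22.7% of all genes were called in that comparison, 16.6% higher and 6.10% lower. Against that library, the 3 calls became 6 with the mean of probe sets, 7 with the trended prior, 14 with centred arrays (1 higher, 13 lower) and 2 to 3 with each array left out. The 14 stand beside 38.7% of all genes called with centred arrays, 10.0% higher and 28.6% lower. Shares of all genes under the other alternatives are not given here for either comparison with that library. In that comparison Rpl37 lost its call with centred arrays (0.22), without any parental array or without tumour line 3, 4 or 6. Rpl39 lost its call there with centred arrays (0.11). The median difference of -0.04 became -0.074 with centred arrays and ran from -0.04 to -0.03 with each array left out. The cause of these shifts was not tested.

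The values that changed sign were all uncalled. In tumour lines against parental arrays, centring gave -0.0091 for Rpl41, -0.0115 for Rps14 and -0.032 for Rps2. The mean of probe sets gave -0.033 for Rpl41, 0.043 for Rps4x and -0.0093 for Rps6. Single probe sets gave -0.19 and -0.081 for Rpl41, 0.15 for Rps4x and -0.12 for Rps6, and leaving out _x_at and _s_at probe sets gave -0.19 for Rpl41. With each array left out, Rps16 ran from -0.15 (without parental array 1) to 0.073 (without parental array 3) and Rps2 from -0.0099 to 0.016. Rps2 was -0.00018 with repeated normalization, -2.5e-05 and -0.0046 without parental arrays 1 and 2, and -0.0074 and -0.0099 without tumour lines 4 and 6. In the library labelled GFP-transfected against parental arrays, centring gave 0.10 for Rpl14, Rpl35 and Rps14, 0.11 for Rpl27a and 0.063 for Rpl39, and the mean of probe sets gave 0.0041 for Rpl27a. No paired analysis was possible because no label pairs a parental array with a tumour line. Members near the top of the signal range may have had little room to rise, which was not tested. Whether their falls are understated was not tested either.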

Other observations

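Ribosomal protein symbols also stood on 110 probe sets annotated with several genes, which the gene tests left out. Of these, 79 had a mean above 13. Fitted together with the other probe sets in limma, 8 passed as higher and 3 as lower when tumour lines were set against parental arrays, with a median difference of -0.0015 and a range of -0.38 to 1.0. Over all single-gene probe sets 33.9% were called, 15.5% higher and 18.4% lower. Which of the annotated genes such a probe set reads is not known here, so that none is named.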
